A study of Mus musculus with 9 samples.

Results

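Difamilast inhibits phosphodiesterase 4 (PDE4), and the comparison described here asks which genes of mouse basophils still differed from rest when interleukin-3 (IL-3) and IL-33 were given together with that inhibitor, and which differed from rest only with it. It uses 6 of the 9 libraries of the series, the 3 treated with cytokines and difamilast and the 3 resting ones. Every gene that passed a filter on low counts was taken, 21341 of the 35673 genes in the table. The basophils were grown from C57BL/6J WT bone marrow for 7 days in 0.3 ng/mL IL-3 and taken by magnetic selection for CD49b. Portions of 10000 cells were then kept for 4 hours. PBS and DMSO, the solvent of the drug, were given to the resting cells. The difamilast cells received IL-3 at 10 ng/mL, IL-33 at 10 ng/mL and difamilast at 3 µM. The other 3 libraries, called stimulated here, received the same cytokines with DMSO. They serve to place each gene, and they share the filter, scaling and dispersion of the fit, which held all 9 libraries. Resting cells given difamilast were not analysed here, so a difference from rest combines the cytokines and the inhibitor. Neither separate cultures nor separate animals are stated for the replicates, so p-values measure only how these samples vary, and that variation may be technical.

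Basophils are scarce blood granulocytes that act in allergic inflammation and in defence against worms, through histamine, lipid mediators and cytokines such as IL-4 and IL-13. IL-33 binds the receptor ST2 and signals through MyD88 to NF-kB and MAP kinases, and IL-3 signals through its receptor, JAK2 and STAT5. PDE4 enzymes degrade the second messenger cyclic AMP (cAMP). Their inhibition raises cAMP, which activates protein kinase A, and that kinase phosphorylates CREB, a factor that binds the cAMP response element (CRE) in promoters.

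Promoter sequence is shown for genes that stand for the patterns described further on. All sequences are RefSeq windows on GRCm38.p6, written 5′ to 3′ on the strand of the gene, and positions count bases from the RefSeq start site, negative upstream. In the first set, capitals mark the CRE octamer TGACGTCA, which starts at -61 in Areg, -95 in Dio2, -56 in Tinf2 and -57 in Gzmc. The octamer was also in named genes of other patterns: Mitf (-153), which was lower only with difamilast, Hlf (-9) and H2-Aa (-74), lower than at rest under both treatments, and Slc18a2 (-4), which was higher under both. Areg encodes amphiregulin, a growth factor, Dio2 an enzyme that activates thyroid hormone, Tinf2 a telomere protein of the shelterin complex, and Gzmc a granzyme. Against rest, Areg and Gzmc were higher with the cytokines and higher still with difamilast, and Dio2 and Tinf2 were called higher only with difamilast. The windows are chr5:91139492-91139591 (plus strand), chr12:90739080-90739179 (minus), chr14:55681820-55681919 (minus) and chr14:56234661-56234760 (minus), in that order.
Areg: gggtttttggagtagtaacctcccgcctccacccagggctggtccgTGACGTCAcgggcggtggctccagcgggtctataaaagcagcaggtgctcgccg
Dio2: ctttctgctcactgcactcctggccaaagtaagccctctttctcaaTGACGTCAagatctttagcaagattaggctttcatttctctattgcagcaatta
Tinf2: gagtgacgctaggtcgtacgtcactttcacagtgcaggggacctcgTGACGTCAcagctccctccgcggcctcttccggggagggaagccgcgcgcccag
Gzmc: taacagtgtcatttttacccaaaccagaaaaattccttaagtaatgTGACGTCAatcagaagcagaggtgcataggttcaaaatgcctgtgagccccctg

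In the second set, capitals mark matches to the NF-kB consensus in promoters of 4 genes that were higher than at rest under both treatments. The matches start at -97 and, overlapping, -96 in Cxcl2, at -73 and -72 in Cxcl3, at -44 in Il6 and at -29 in Nfkbia. The consensus was also in named genes of other patterns. Among them were H2-Aa (-131), lower than at rest under both treatments, and Mitf (-177), lower only with difamilast. Others were Ramp3 (-51), lower only in stimulated cells, and Csf1 (-154), on opposite sides of rest. Cxcl2 and Cxcl3 encode chemokines that attract neutrophils, Il6 the cytokine interleukin-6, and Nfkbia the inhibitor that holds NF-kB in the cytoplasm. The windows are chr5:90903756-90903855 (plus), chr5:90785982-90786081 (plus), chr5:30013014-30013113 (plus) and chr12:55492648-55492747 (minus).
Cxcl2: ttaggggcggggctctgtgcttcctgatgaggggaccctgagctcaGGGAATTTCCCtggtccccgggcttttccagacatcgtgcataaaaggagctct
Cxcl3: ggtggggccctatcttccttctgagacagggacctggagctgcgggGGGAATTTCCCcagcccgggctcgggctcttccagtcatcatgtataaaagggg
Il6: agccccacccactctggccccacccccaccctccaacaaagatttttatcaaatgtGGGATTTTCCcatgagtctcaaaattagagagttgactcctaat
Nfkbia: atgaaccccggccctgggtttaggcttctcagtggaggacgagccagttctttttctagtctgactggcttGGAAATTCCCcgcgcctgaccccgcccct

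Total counts ran from 6261446 to 14795353 in resting libraries and from 24812305 to 30299575 in difamilast libraries. Of the counts, mitochondrially encoded genes took 1.82% to 2.71% at rest and 1.19% to 1.42% with difamilast. Levels are given as CPM, which relates counts to the total of the library after scaling for its composition. Resting replicate 1 and difamilast replicate 3 stood apart from their groups: on the second principal component of all 9 libraries (13.5% of variance), their scores were 16.99 against -13.49 and -7.33, and 1.66 against 22.13 and 19.54. On that component stimulated libraries scored -13.18, -16.07 and -10.25, and difamilast replicate 3 lay nearest to them of its group. Among genes of at least 10 CPM, the median log2 difference of difamilast from stimulated libraries was -0.31 for transcripts under 750 bases, -0.39 for the next longer class and 0.04 for the longest class. Against rest, those medians were -0.13, -0.18 and -0.03. The part of transcript length in the values of short genes was not tested beyond a fit with that trend removed. With bulk RNA, fewer cells of a type and less RNA per cell cannot be told apart. Basophil markers were abundant: 14 of 19 tested markers rose and Itga2, which encodes CD49b, fell. Their summed level was 11461 to 14089 CPM at rest, 30755 to 32020 in stimulated and 31828 to 32836 in difamilast libraries. The list includes Il6, Il4, Osm and Cd69, which the cytokines raised, so neither the count nor the sum measures basophil identity or number.

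Against rest, 3501 genes rose and 3500 fell in cells stimulated under difamilast (16.4% of tested genes in each direction, 32.8% in all, edgeR's quasi-likelihood test, Benjamini-Hochberg adjusted p under 0.05). At least 2-fold changes made up 1784 of the rises (8.36% of tested genes) and 1280 of the falls (6%). A fit of the resting and difamilast libraries alone called 2933 higher and 3012 lower. The call threshold fell between Prkcsh, with an edgeR adjusted p of 0.04999, and Lipt2, at 0.05001. Without resting replicate 1 the test called 3423 genes higher and 3850 lower, and without difamilast replicate 3 it called 3048 and 3165. Stimulated libraries, with the same resting controls, gave 6770 calls (31.7%), 3273 genes higher (15.3%) and 3497 lower (16.4%), and a direct test of difamilast against stimulated libraries called 735 genes (3.44%), 471 higher (2.21%) and 264 lower (1.24%). That direct test called 258 and 89 without difamilast replicate 2, and 870 and 823 without resting replicate 1, the lowest and highest counts when 1 library was left out.

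These 3 tests place each gene in a class, so the values of a class describe it and test nothing further. Persisting genes were called against rest in the same direction under both treatments, 5295 in all (24.8%): 2612 higher (12.2% of tested genes) and 2683 lower (12.6%). For 2921 of them (13.7%) the 95% interval of the difference between treatments lay wholly within 1.5-fold, and these are called held, 1332 higher (6.24%) and 1589 lower (7.45%). In 170 (0.797%) the level with difamilast was significantly nearer to rest, 115 of them higher than at rest (0.539%) and 55 lower (0.258%). In 176 (0.825%) it was significantly farther from rest, 158 higher (0.74%) and 18 lower (0.0843%). The other 2028 met neither condition and were not within the interval. Without stimulated replicate 1, 2 or 3, held genes numbered 864, 917 and 920 higher and 1247, 980 and 993 lower, against 1332 and 1589 with all libraries. Genes higher than at rest and nearer to it numbered 115, and 224 without resting replicate 1, 58, 66 and 72 without stimulated replicates 1 to 3, and 61 and 52 without difamilast replicates 1 and 2. Those higher and farther from rest numbered 158, and in the same order 283, 88, 84, 98, 101 and 91. For genes lower than at rest these counts were 55 nearer and 18 farther, and in the same order 116, 23, 24, 29, 25 and 20 nearer and 94, 3, 5, 7, 7 and 5 farther; without difamilast replicate 3, 30 were farther. Drug-only genes were called against rest with difamilast, were not called with the cytokines alone, and also differed between the treatments in the same direction, 155 in all (0.726%): 117 higher (0.548%) and 38 lower (0.178%). A further 1523 genes (7.14%) were called against rest with difamilast only, but no difference between treatments was called for them. Returned genes, 175 in all (0.82%), were 77 higher (0.361%) and 98 lower (0.459%) in stimulated cells. They were not called against rest under difamilast and differed between the treatments toward rest.

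**Figure D1:**
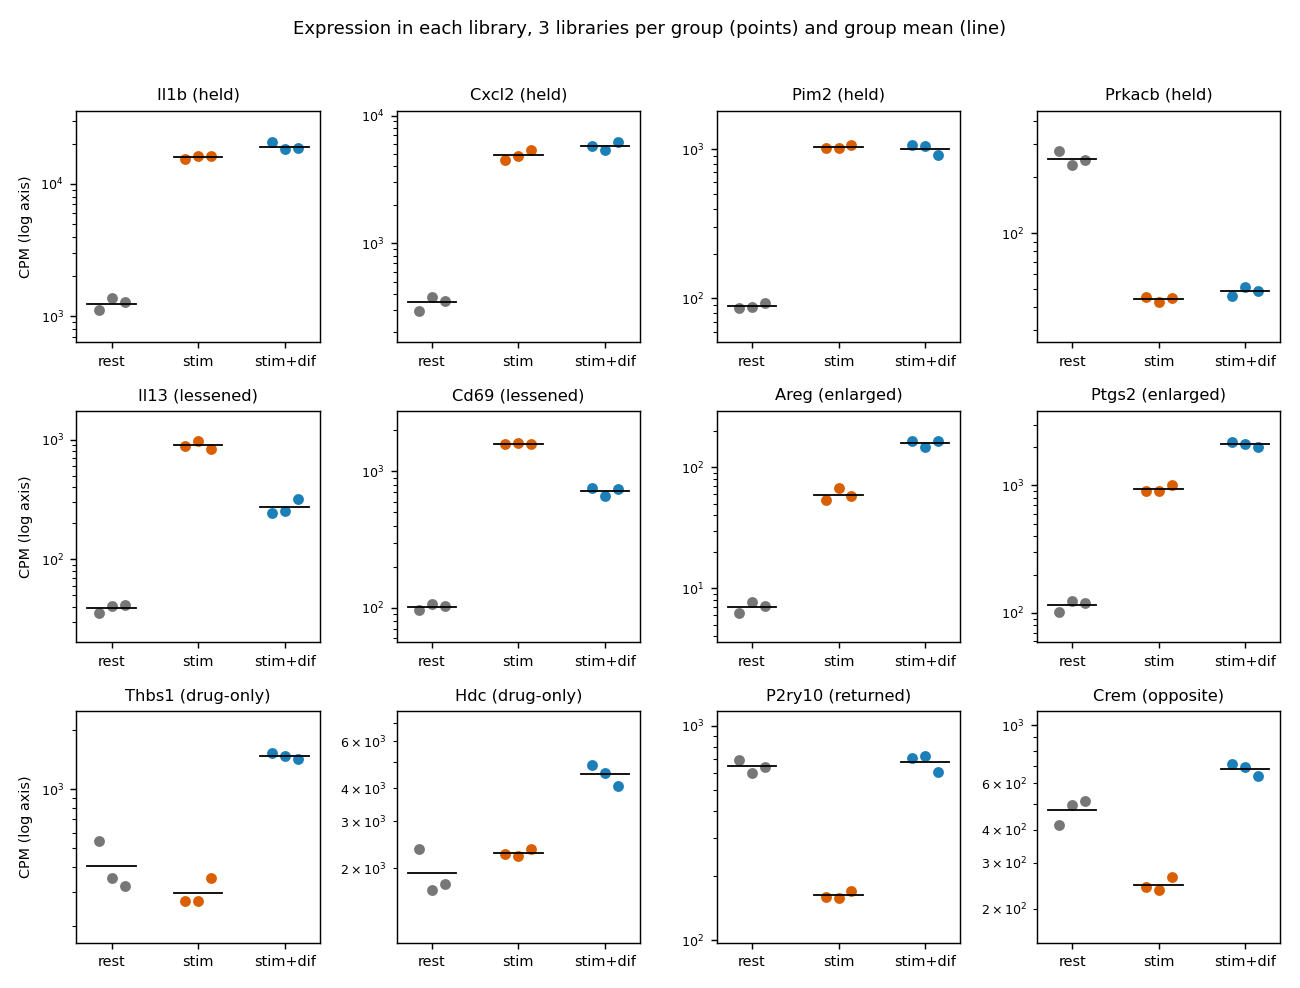
Levels of 12 genes in each of the 9 libraries, in CPM on a log axis; points are libraries and lines are group means. Il1b, Cxcl2, Pim2 and Prkacb sit at like levels in stimulated and difamilast libraries, Il13 and Cd69 lie between, Areg and Ptgs2 are highest with difamilast, Thbs1 and Hdc are high only with it, P2ry10 is low only in stimulated libraries, and Crem lies on opposite sides of rest.

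The 8 largest rises with no overlap between libraries and at least 10 CPM were in Areg, Ptgs2, Cxcl2, Il9, Il1a, Serpinb2, Il1b and Csf2. Areg (chromosome 5, 91139599 to 91148432) had 6.29, 7.65 and 7.09 CPM at rest, 53.8, 66.9 and 57.7 in stimulated and 165, 147 and 165 in difamilast libraries. Its log2 fold change against rest under difamilast was 4.50 ± 0.14 (SE, n = 3 and 3), 22.6-fold, with an edgeR adjusted p of 1.16e-11. Every difamilast library lay above every stimulated one. Ptgs2, the inducible cyclooxygenase that makes prostaglandin precursors (chromosome 1, 150100031 to 150108227), went from 103, 124 and 120 CPM to 2189, 2098 and 2015 under difamilast, with 896, 902 and 1014 in stimulated libraries. That was an 18.2-fold rise (edgeR adjusted p = 1.16e-11), again with no overlap among the 3 groups. Serpinb2, an inhibitor of plasminogen activators, rose 15.5-fold from 8.74, 9.36 and 11.3 CPM to 165, 142 and 142. Serpinb2 overlaps Serpinb10 on the same strand, so its counts may hold reads of both.

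Il1b encodes the inflammatory cytokine IL-1 beta and was the most abundant of these genes. It had 1109, 1364 and 1272 CPM at rest, 15314, 16161 and 16414 in stimulated and 20629, 18314 and 18590 in difamilast libraries. The rise was 15.4-fold (log2 3.94 ± 0.12, edgeR adjusted p = 1.16e-11), and the treatments differed by a log2 of 0.26 ± 0.11 (edgeR adjusted p = 0.249). Il1a, the gene of IL-1 alpha, behaved likewise, with 146, 182 and 159 CPM at rest and 2688, 2543 and 2388 under difamilast, 15.6-fold. For Cxcl2 the levels were 294, 383 and 355 CPM at rest, 4516, 4858 and 5419 in stimulated and 5793, 5363 and 6256 in difamilast libraries, a 16.9-fold rise against rest. Il1a overlaps Gm14023 and Il1b overlaps Il1bos on the opposite strand, and whether counting used strand is not given.

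Csf2, the gene of the growth factor GM-CSF, and Il9, the gene of a mast cell growth factor, spread more under difamilast than the genes above. Csf2 had 3.78, 6.44 and 5.19 CPM at rest, 121, 132 and 123 in stimulated and 59.8, 68.3 and 110 in difamilast libraries. It was 15.3-fold above rest, and the direct test between treatments gave a log2 difference of -0.66 ± 0.19 (edgeR adjusted p = 0.0846). Il9 had 113, 142 and 120 CPM at rest and 1581, 1617 and 2848 under difamilast, 16.1-fold higher. In both genes the highest difamilast value was replicate 3. Without that library the difference from stimulated cells was called for Csf2 (log2 -0.97, edgeR adjusted p = 0.00175), for Il9 (-0.57, 0.0219) and for the chemokine gene Ccl3 (-0.87, 0.00389), whose values were 587, 880 and 754 CPM at rest and 6246, 6150 and 9612 under difamilast. With all libraries kept and the length trend removed it was also called for Csf2 (-0.51, 0.0294) and Ccl3 (-0.46, 0.0187). Over all alternatives it was not called in 10 of 16 for Csf2 and Ccl3, and in 15 for Il9.

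The 8 largest falls were in Nap1l5, Samd13, Gdf15, Rapsn, Nxpe4, Cd7, Pnpla7 and Tmem71, between 11.6-fold and 7.66-fold. Nap1l5, an imprinted gene for a histone chaperone-like protein, went from 16.2, 18.5 and 16.5 CPM to 1.88, 1.06 and 1.47 (log2 -3.54 ± 0.24, edgeR adjusted p = 2.37e-08). Gdf15, a stress-induced cytokine gene, fell 10.9-fold from 7.9, 11.3 and 15.6 CPM to 1.01, 1.28 and 0.806. Cd7 encodes a lymphocyte surface protein and Pnpla7 a lysophospholipase. Pnpla7 had 237, 186 and 186 CPM at rest, 27.6, 27.5 and 30.8 in stimulated and 24.8, 22.1 and 30.4 in difamilast libraries, a 7.88-fold fall. The resting and difamilast libraries of these 8 genes did not overlap, which also held for 42.9% of all tested genes, and each was also lower than rest in stimulated cells.

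Gene lists of known pathways describe the program, as the share of tested members called against rest. Beside these shares stand 16.4% higher and 16.4% lower among all tested genes. The lists were chosen with earlier results of these data known, so the shares describe them and test nothing. Over all tested genes the median log2 fold change was 0.009. Where list members are counted by class, the shares of all tested genes were 13.7% held, 0.797% nearer to rest and 0.825% farther. They were 0.726% drug-only, 0.82% returned and 0.131% on opposite sides of rest. Of 34 NF-kB feedback and target genes, 28 rose and 3 fell (median log2 fold change 1.64). Of 24 IL-3 receptor and STAT5 targets, 18 rose and 1, Gfi1, fell (median 1.97). Cytokine and growth factor genes gave 23 higher and 4 lower of 34 (median 1.83), with 7 lower without resting replicate 1, and of 22 chemokine genes 14 rose and 1, Cxcl16, fell (median 2.00). Type I interferon stimulated genes gave 31 higher and none lower of 36 (median 1.46). edgeR and DESeq2 both called 0 of them lower, and at an unadjusted p under 0.05 edgeR also gave 0.

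**Figure D2:**
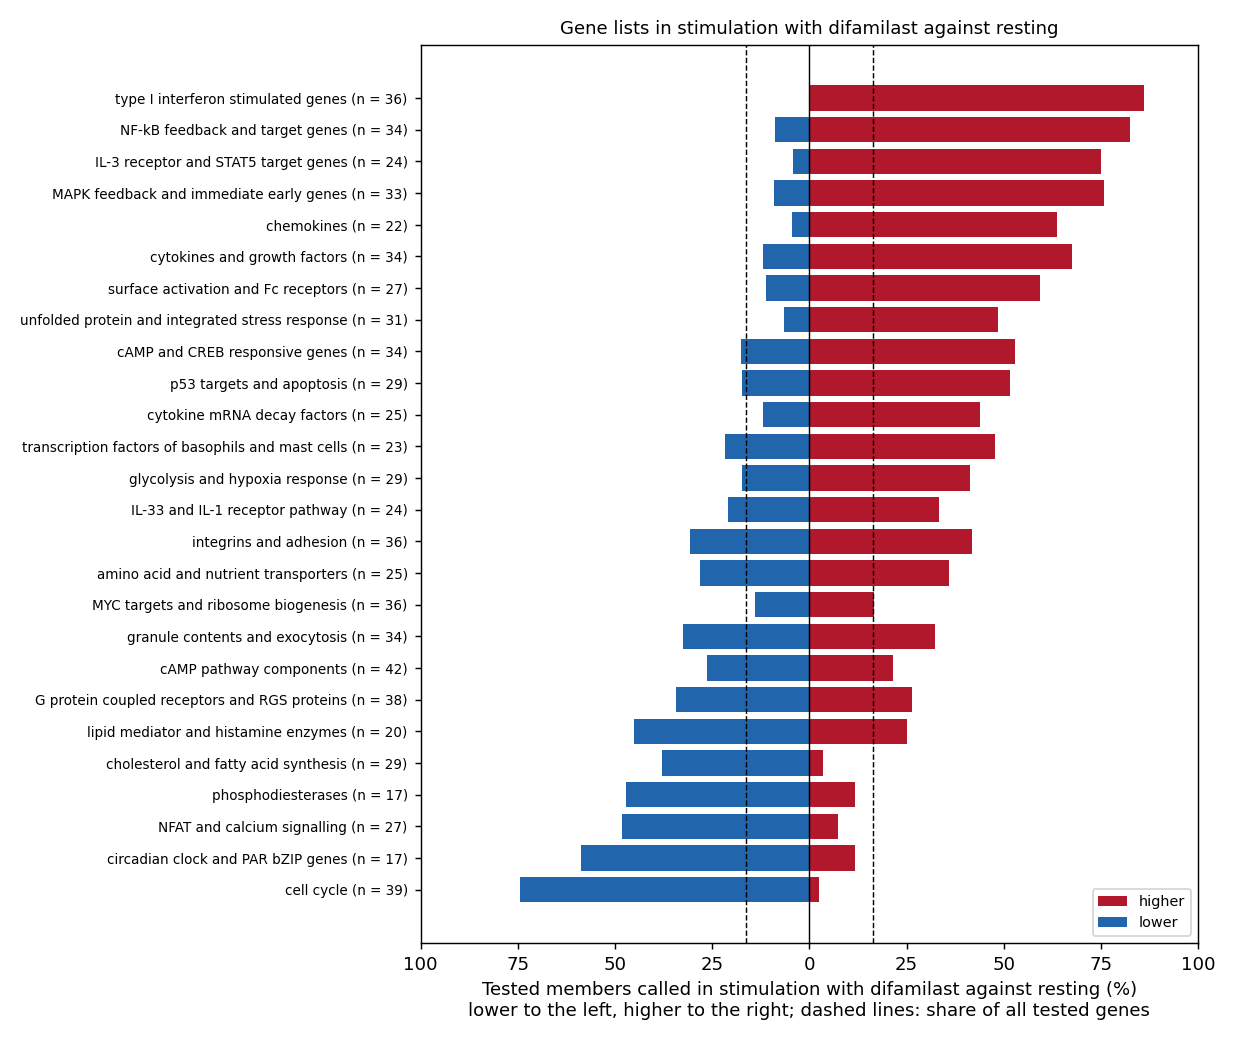
Share of tested members called lower (bars to the left) or higher (bars to the right) against rest under difamilast, in percent, for 26 pathway lists; dashed lines mark the 16.4% of all tested genes called in each direction. Interferon stimulated, NF-kB and MAPK lists extend farthest to the right, and the cell cycle list extends farthest to the left.

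Among the STAT5 targets, 13 of 24 were held within 1.5-fold of the stimulated level. Pim2, a kinase gene that promotes survival, had 86.7, 87.2 and 92.8 CPM at rest, 1020, 1024 and 1066 in stimulated and 1060, 1047 and 910 in difamilast libraries. It rose 11.3-fold against rest (edgeR adjusted p = 1.16e-11), and the treatments overlapped, with a log2 difference of -0.04 ± 0.10. The feedback inhibitors of cytokine signalling rose as well: Cish went from 248, 260 and 233 CPM to 3027, 3001 and 2340 (11.3-fold) and Socs3 from 164, 178 and 175 to 2301, 2228 and 1750 (12.1-fold). Il2ra, which encodes the alpha chain of the IL-2 receptor, rose 13.3-fold from 30.7, 36.1 and 27.6 CPM to 419, 415 and 432, and Stat5a itself, which overlaps Stat3 on the opposite strand, rose 4.7-fold. Csf2rb and Csf2rb2, the genes of the beta chains of the IL-3 receptor, were the 2 returned genes of the list. Csf2rb had 3288, 2717 and 2647 CPM at rest, 1954, 1947 and 2051 in stimulated and 3532, 3372 and 3029 in difamilast libraries. These near-identical paralogs may share reads, so their separate levels are uncertain.

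Within the NF-kB list, 14 of 34 genes were held, 4 lay nearer to rest and 6 farther from it. Traf1, an adaptor of TNF receptors, was among the held genes and rose 15.1-fold from 70.8, 91.8 and 76.5 CPM to 1066, 1099 and 1459. Nfkbia rose 4.7-fold from 445, 497 and 494 CPM to 2205, 2331 and 2214, with 2771, 2846 and 2952 in stimulated libraries. All its difamilast libraries were below the stimulated ones, and the direct test gave a log2 difference of -0.34 ± 0.09 (edgeR adjusted p = 0.0612). That difference was not called in 12 of 16 alternatives and was called in the others. Nfkb1, the gene of the p50 precursor, lay on the other side, with 161, 151 and 153 CPM at rest, 795, 813 and 918 in stimulated and 1318, 1173 and 1180 in difamilast libraries. It was 7.89-fold above rest and differed between treatments (log2 0.54 ± 0.10, edgeR adjusted p = 0.0048). Bcl3 and Nfkbiz, which encode nuclear inhibitor-like partners of NF-kB, rose 7.62-fold and 7.35-fold.

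Receptor and adaptor genes upstream moved less. Of 24 genes of the IL-33 and IL-1 receptor pathway, 8 rose and 5 fell (median 0.15). Il1rl1, which encodes ST2, had 514, 517 and 617 CPM at rest, 1175, 1450 and 1333 in stimulated and 1122, 1132 and 1563 in difamilast libraries, a 2.32-fold rise. Irak3, a negative regulator of the pathway, rose 2.48-fold. The IL-18 receptor chains Il18r1 and Il18rap fell 3.18-fold and 2.74-fold, Il18r1 from 121, 120 and 115 CPM to 36.5, 39.1 and 36.2. MAPK feedback and immediate early genes gave 25 higher and 3 lower of 33 (median 1.02). Among them, Phlda1 rose 8.39-fold, and Egr1, an early growth response factor, rose 6.02-fold from 25.1, 29.6 and 27 CPM to 161, 168 and 163, with no overlap between groups.

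Interferon stimulated genes encode antiviral proteins. In this list 17 of 36 were held, 2 (Gbp2 and Mx1) were nearer to rest and 3 (Ifit2, Ifit3 and Ifit3b) returned. Gbp2, a guanylate-binding protein gene, had 133, 127 and 128 CPM at rest, 1602, 1507 and 1600 in stimulated and 1094, 1074 and 1152 in difamilast libraries. It stayed 8.53-fold above rest, and all difamilast libraries were below the stimulated ones (log2 difference -0.50 ± 0.09, edgeR adjusted p = 0.00398). Zbp1, a sensor of nucleic acids, and Ifi47, an immunity-related GTPase gene, rose 4.51-fold and 4.58-fold. Ifi47 had 44.7, 36.6 and 28.2 CPM at rest and 174, 166 and 165 under difamilast.

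In several lists more members fell than rose. Of 39 cell cycle genes 29 fell and 1, Tyms, rose (median -0.95), and 15 were held. Mki67, the gene of the proliferation antigen Ki-67, had 52, 54.1 and 56.4 CPM at rest, 22.9, 18.4 and 21.2 in stimulated and 16.2, 23.8 and 19.8 in difamilast libraries, a 2.72-fold fall. Resting libraries were all above the treated ones, and the treatments overlapped. Of 27 NFAT and calcium signalling genes 13 fell and 2 rose (median -0.39): Plcg1, phospholipase C gamma, fell 3.54-fold and Stim1, the calcium sensor of the endoplasmic reticulum, 2.07-fold, while Nfat5 rose 4.63-fold and the calcium channel gene Orai1 2.33-fold. Of 17 circadian clock and PAR bZIP genes 10 fell and 2 rose (median -0.78). Cholesterol and fatty acid synthesis genes gave 11 lower and 1 higher of 29 (median -0.26). Scd2, a stearoyl-CoA desaturase gene, fell 2.73-fold from 40.5, 30.2 and 32.8 CPM to 13.1, 13.6 and 11.3, and Srebf2, the transcription factor gene of the sterol pathway, fell 1.91-fold.

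Cytokine genes of type 2 responses persisted at lower levels. Il13 (chromosome 11, 53631324 to 53634702) had 35.7, 41 and 41.3 CPM at rest, 886, 978 and 828 in stimulated and 242, 256 and 318 in difamilast libraries. The groups did not overlap: Il13 was 6.92-fold above rest under difamilast (edgeR adjusted p = 3.63e-10) and differed from stimulated cells by a log2 of -1.72 ± 0.12 (edgeR adjusted p = 1.48e-06). Il4 had 13.6, 20.1 and 22.4 CPM at rest, 101, 117 and 83.9 in stimulated and 34.1, 33.5 and 50.2 in difamilast libraries, 2.11-fold above rest. Il4 and Il13 are short transcripts, and with the length trend removed the differences from stimulated cells were -1.17 and -1.63 (edgeR adjusted p = 1.56e-05 and 4.5e-08). Without difamilast replicate 3 they were -1.57 and -1.85. Il5, the eosinophil growth factor gene of the same family of responses, went the other way, from 0.629, 1.43 and 1.77 CPM at rest and 3.9, 3.98 and 4.18 in stimulated to 13.1, 11.5 and 7.02 in difamilast libraries, and Il5 rose 8.6-fold. It was singled out after its values were seen.

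Il6 (chromosome 5, 30013114 to 30019981) rose from 291, 342 and 328 CPM at rest to 3979, 3713 and 4238 under difamilast, with 5953, 6147 and 6270 in stimulated libraries. It stayed 12.4-fold above rest, with every difamilast library below every stimulated one (log2 difference -0.62 ± 0.10, edgeR adjusted p = 0.00174). The activation antigen gene Cd69 rose 7.08-fold from 95.7, 106 and 102 CPM to 750, 663 and 738, below 1578, 1605 and 1595 in stimulated libraries. Chemokines for monocytes followed the same order: Ccl7 had 5.31, 10.6 and 8.74 CPM at rest, 153, 151 and 159 in stimulated and 56.1, 54.4 and 65.2 in difamilast libraries, and Ccl2 rose 3.99-fold. With the length trend removed the differences between treatments were -1.22 for Ccl7 and -1.27 for Ccl2.

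Other persisting genes that were nearer to rest included Mir155hg, the host gene of microRNA 155, 10.6-fold higher, and Aldh1a3, which makes retinoic acid, 9.96-fold higher. Serpina3g and Serpina3f, neighbouring protease inhibitor genes of a multigene family whose reads may be shared, were 9.91-fold and 8.91-fold higher. Irf4 and Batf, transcription factors that act together, lay in this class as well. Irf4 had 4.34, 4.13 and 2.28 CPM at rest, 39.5, 31.2 and 38 in stimulated and 16.1, 14.2 and 18.1 in difamilast libraries, and Batf 15.6, 25.4 and 25.1, then 184, 182 and 182, then 64.1, 68.8 and 99.4. Batf was 3.52-fold and Irf4 4.31-fold above rest, with no overlap of the 3 groups in either gene. In the downward direction, S1pr1, a receptor for leukocyte exit from tissues (chromosome 3, 115710433 to 115715072), had 122, 97.3 and 106 CPM at rest, 8.66, 8.85 and 7.98 in stimulated and 19.6, 22.1 and 16.2 in difamilast libraries, and it fell 5.59-fold. Sorl1, a sorting receptor gene, fell 3.91-fold and Fads1, a fatty acid desaturase gene, 3.16-fold. The difference between treatments was not called in 4 of 16 alternatives for Mir155hg and in 5 for Fads1.

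Genes that lay farther from rest with difamilast included 5 of 34 genes of the cAMP list and 6 of 34 of the NF-kB list, with Ptgs2 in both. Nr4a3, an orphan nuclear receptor gene (chromosome 4, 48045153 to 48086447), had 25.9, 24.3 and 23.4 CPM at rest, 154, 158 and 153 in stimulated and 301, 345 and 335 in difamilast libraries. It rose 13.3-fold against rest, and the treatments differed (log2 1.08 ± 0.10, edgeR adjusted p = 7.82e-06). Peg10, an imprinted retrotransposon-derived gene, went from 14.5, 13.4 and 12.3 CPM at rest and 80, 78.9 and 92 in stimulated to 188, 189 and 208 in difamilast libraries, 14.5-fold above rest. Plaur, the urokinase receptor gene, rose 4.14-fold. The granzyme genes Gzmb and Gzmc rose 5.29-fold and 8-fold: Gzmc had 6.71, 5.94 and 11.5 CPM at rest, 17.8, 20.5 and 24.7 in stimulated and 52.9, 57.9 and 75.3 in difamilast libraries. Tnfrsf9, the costimulatory receptor 4-1BB, rose 9.26-fold. No group overlapped another in Peg10 or Gzmc.

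Fewer genes fell farther with difamilast. Hvcn1, a proton channel gene, had 149, 94.1 and 111 CPM at rest, 40.4, 36.9 and 36.2 in stimulated and 24.9, 24.6 and 23.1 in difamilast libraries, 4.86-fold below rest. Its difference between treatments (edgeR adjusted p = 0.0216) was not called in 7 of 16 alternatives, where the adjusted p reached 0.331. Zfp36l2, which encodes a protein that promotes mRNA decay, fell 4.65-fold from 354, 276 and 308 CPM to 70.1, 67.5 and 64.2, with 109, 111 and 104 in stimulated libraries. Its relatives Zfp36 and Zfp36l1 were drug-only genes in the other direction, and both were chosen after their values were seen: Zfp36 had 202, 194 and 187 CPM at rest, 208, 221 and 219 in stimulated and 318, 314 and 276 in difamilast libraries. In each of these genes the difamilast libraries overlapped neither other group.

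Of 34 cAMP and CREB responsive genes, 18 rose and 6 fell against rest (median 0.59; 3 fell without difamilast replicate 2), and 19 were higher and 1 lower in the direct test against stimulated cells, where 2.21% of tested genes were called higher. Members of this list, too, were chosen with earlier results of these data known, so its shares are a description only. By class, 3 were held, 3 nearer to rest, 5 farther from rest, 6 drug-only, 3 returned and 3 on opposite sides of rest. Pde4b, one of the genes of the inhibited enzyme family, had 39.7, 39.9 and 42.6 CPM at rest, 213, 216 and 220 in stimulated and 314, 302 and 305 in difamilast libraries, 7.56-fold above rest. Pde4d fell 1.63-fold from 43.4, 39.2 and 36.1 CPM to 25.7, 27.2 and 20.1, and Pde4a fell 2.71-fold from 23.8, 19 and 15.6 to 7.32, 7.57 and 6.78. Of these 3 PDE4 genes, Pde4b was higher than at rest and the others lower, with no overlap with resting libraries.

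Of 17 phosphodiesterase genes 8 fell and 2 rose (median -0.32), and of 42 cAMP pathway components 9 rose and 11 fell (median 0.06). Prkacb, a catalytic subunit of protein kinase A, had 276, 231 and 248 CPM at rest, 45.5, 42.7 and 44.9 in stimulated and 46, 51 and 48.7 in difamilast libraries, a 5.18-fold fall that was held. The adenosine receptor genes Adora2b and Adora2a, whose products raise cAMP, rose 7.09-fold and 5.29-fold. Adora2a had 19.2, 14.1 and 17.6 CPM at rest, 44.8, 48.7 and 51.3 in stimulated and 92.9, 92.9 and 82.9 in difamilast libraries, whereas Adora2b was higher in stimulated (496, 470 and 517) than in difamilast libraries (403, 367 and 316).

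The class of drug-only genes held 117 higher and 38 lower genes. Thbs1, thrombospondin 1, an adhesive matrix glycoprotein (chromosome 2, 118111876 to 118127133), was the most abundant of the 10 largest rises. It had 544, 353 and 320 CPM at rest, 269, 269 and 351 in stimulated and 1521, 1483 and 1420 in difamilast libraries. It rose 3.63-fold under difamilast (log2 1.86 ± 0.17, edgeR adjusted p = 7.41e-07). With the cytokines alone the log2 fold change was -0.45 (95% interval -0.81 to -0.10) and the edgeR adjusted p was 0.051, and in 7 of 16 alternatives Thbs1 was called lower there. The resting and stimulated libraries overlapped, and the difamilast libraries lay above both.

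Tinf2 (chromosome 14, 55674689 to 55681820) had 49.2, 39.7 and 39.9 CPM at rest, 39.5, 39.2 and 42.7 in stimulated and 195, 185 and 123 in difamilast libraries, 3.9-fold above rest. With the cytokines alone its log2 fold change was -0.09 (95% interval -0.42 to 0.25). Tinf2 overlaps Gmpr2 on the opposite strand, and for Gmpr2 no difference from rest was called (log2 -0.18, edgeR adjusted p = 0.393). Dio2 rose 7.33-fold from 1.61, 1.05 and 2.15 CPM to 12.6, 11 and 9.63, and Hid1, a gene of dense core vesicle formation, rose 9.25-fold from 1.05, 1.65 and 0.887 to 13.3, 12.9 and 8.77. For Hid1 the interval with cytokines alone was 0.13 to 1.62, which leaves room for a rise there, and 4 of 16 alternatives called one. Dio2 had an edgeR adjusted p of 0.0995 with the cytokines alone and was called there in 0 of 16 alternatives. A p that misses the threshold is no proof of no change.

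Receptors and surface proteins were among the drug-only rises. Tlr4, the receptor for bacterial lipopolysaccharide, rose 3.37-fold from 13.1, 9.63 and 7.98 CPM to 35.4, 33.2 and 36.2. Clec10a, a C-type lectin gene, rose 4.03-fold, Chrne, a subunit of the nicotinic acetylcholine receptor, 3.85-fold, and Ptprn, a protein of secretory granule membranes, 4.29-fold. B3gnt5, a glycosyltransferase gene, went from 10.7, 10.5 and 10.3 CPM to 39.1, 45.5 and 28.7, with 9.9, 8.4 and 6.68 in stimulated libraries. Clec10a was called higher with the cytokines alone in 3 of 16 alternatives and Tlr4 in 2. In the main fit their edgeR adjusted p-values there were 0.0711 and 0.0624, near the threshold.

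**Figure D3:**
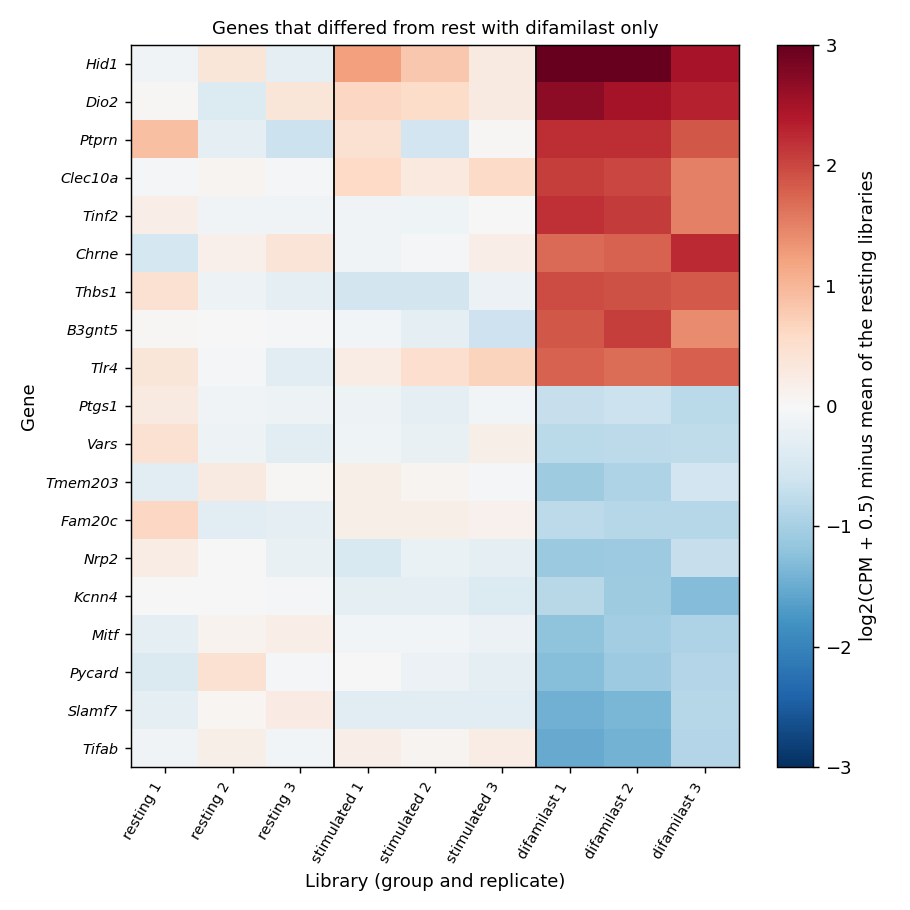
Heat map of 19 genes among the drug-only genes with the largest rises and falls (rows) in the 9 libraries (columns); colour is log2(CPM + 0.5) minus the mean of the resting libraries, with limits at -3 and 3. The 3 difamilast columns stand apart from the resting and stimulated columns in the rows above and below, and difamilast replicate 3 is paler in several rows.

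Hdc encodes histidine decarboxylase, the enzyme that makes histamine, and was a drug-only gene of high level. It had 2350, 1657 and 1746 CPM at rest, 2257, 2218 and 2356 in stimulated and 4902, 4570 and 4082 in difamilast libraries. It was 2.36-fold above rest (log2 1.24 ± 0.13, edgeR adjusted p = 3.09e-06), and the cytokines alone gave 0.25 (95% interval -0.03 to 0.52). The resting and stimulated libraries overlapped, and the difamilast libraries lay above all others. Pfkfb3, which makes an activator of glycolysis, rose 2.05-fold from 58.5, 45.9 and 46.4 CPM to 110, 109 and 89.7, and Myb, a progenitor transcription factor gene, rose 2.46-fold. With the cytokines alone their edgeR adjusted p-values were 0.13 and 0.0979, and each was called there in 2 of 16 alternatives.

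Further drug-only genes of the fixed lists were, all chosen after their values were seen, Vegfa, Stat3, Irs2, Odc1, Gnas, Adora3, Pde5a, Slc7a11, Slc7a5 and Slc3a2. Vegfa, a vascular growth factor gene, had 53.1, 71.2 and 63.5 CPM at rest, 50.8, 52.5 and 63 in stimulated and 115, 122 and 121 in difamilast libraries, 1.91-fold higher. Slc7a11 and Slc3a2, which form the cystine transporter, rose 1.7-fold and 1.57-fold, and Slc7a5, which pairs with Slc3a2 to import large neutral amino acids, rose 2.18-fold. Of 25 amino acid and nutrient transporters in all, 9 rose and 7 fell (median -0.09).

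The 10 largest drug-only falls were smaller than the rises, from 2.48-fold to 1.68-fold. Tifab, an inhibitor of TRAF6 signalling, had 19.2, 23.4 and 19.2 CPM at rest, 23.6, 21.9 and 23.9 in stimulated and 6.82, 7.35 and 11 in difamilast libraries (log2 -1.31 ± 0.18, edgeR adjusted p = 5.07e-05). Mitf, a transcription factor of mast cells and melanocytes, fell 2.15-fold from 17.7, 23.3 and 25.1 CPM to 9.13, 10.3 and 11.3. Slamf7, a receptor of the SLAM family, fell 2.36-fold, and Pycard, the inflammasome adaptor ASC, 2.23-fold. Ptgs1, the constitutive cyclooxygenase, fell 1.68-fold from 28.9, 22.2 and 21.7 CPM to 14.6, 15.3 and 13.4, opposite to Ptgs2. The call between treatments was lost in 9 of 16 alternatives for Ptgs1, 6 for Nrp2 and for Vars, 4 for Pycard, 3 for Tmem203, 2 for Kcnn4 and for Fam20c, and 1 for Slamf7. With the cytokines alone Kcnn4 and Nrp2 had edgeR adjusted p-values of 0.0966 and 0.0997. Kcnn4, Nrp2, Slamf7, Pycard and Fam20c were each called there in 1 of 16 alternatives.

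The size of this class depended on single libraries. Without resting replicate 1 it held 211 higher and 239 lower genes. It held 77 and 18 without stimulated replicate 1, 76 and 19 without stimulated replicate 2, 73 and 13 without difamilast replicate 1, and 65 and 7 without difamilast replicate 2. Without difamilast replicate 3 it held 135 and 182. Over the 9 fits that each left out 1 library, 60 to 101 of the 117 higher genes and 6 to 32 of the 38 lower genes were shared.

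**Figure D4:**
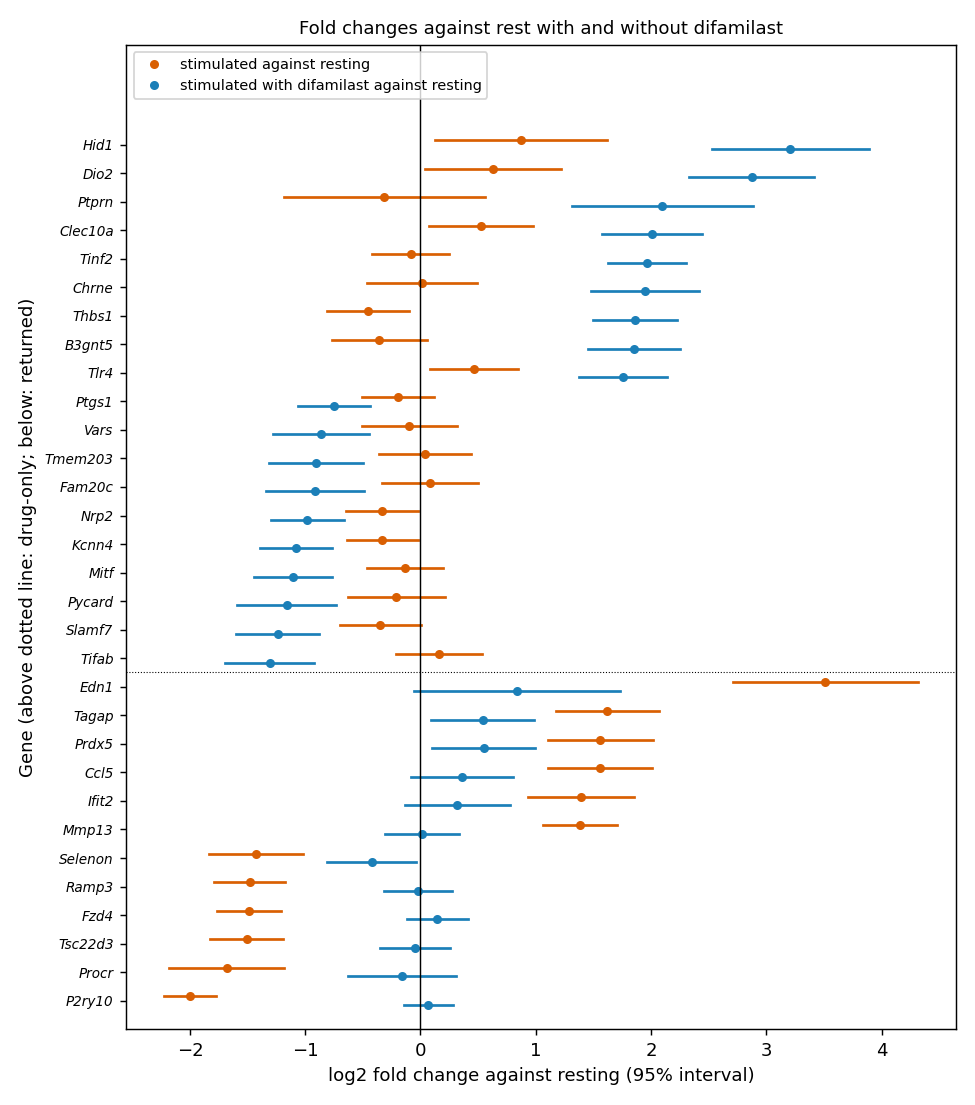
Log2 fold changes against rest with 95% intervals for 19 drug-only and 12 returned genes, stimulated cells in orange and cells with cytokines and difamilast in blue. For drug-only genes the blue intervals lie away from 0, and for returned genes the orange intervals do. Several orange intervals of drug-only genes, such as those of Hid1 and Thbs1, also miss 0. Intervals are not adjusted for the number of genes. A blue interval of a returned gene near the threshold, such as Prdx5, can therefore miss 0 as well.

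Returned genes moved in stimulated cells but were not called against rest under difamilast. P2ry10, a lysophospholipid receptor gene of leukocytes (X chromosome, 107088492 to 107104974), had 693, 606 and 642 CPM at rest, 158, 157 and 170 in stimulated and 706, 722 and 609 in difamilast libraries. The resting and difamilast libraries overlapped, with a log2 difference of 0.07 ± 0.10 (edgeR adjusted p = 0.641), and the treatments differed by 2.07 ± 0.11 (edgeR adjusted p = 6.54e-08). Tsc22d3, the glucocorticoid-induced gene GILZ, had 90.8, 70.7 and 68 CPM at rest, 25.9, 26.4 and 28.4 in stimulated and 86.2, 76.5 and 59.7 in difamilast libraries. Fzd4, a Wnt receptor gene, Ramp3, a receptor activity modifier, and Procr, the protein C receptor, showed the same order.

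In the other direction, Mmp13, a collagenase gene, had 30.7, 22.6 and 29.1 CPM at rest, 70.5, 67.3 and 76.8 in stimulated and 26.3, 23.5 and 33.1 in difamilast libraries, and its log2 difference from rest was 0.01 ± 0.15 (SE). Edn1, the gene of the vasoconstrictor endothelin 1, had 1.54, 0.55 and 0.76 CPM at rest, 9.99, 9.88 and 12.7 in stimulated and 1.88, 0.877 and 2.42 in difamilast libraries. Its log2 difference from rest of 0.84 ± 0.42 did not pass (edgeR adjusted p = 0.143), but it was called without resting replicate 1 or without difamilast replicate 2, where the lowest adjusted p was 0.03. Ccl5, a T cell chemokine gene, had 83.5, 96.4 and 72.6 CPM at rest and 80.4, 85.2 and 160 under difamilast, where replicate 3 was highest; in stimulated libraries it had 235, 275 and 235. Its log2 difference between treatments was -1.20, and -1.03 with the length trend removed. Prdx5, a peroxiredoxin gene, came near the threshold against rest (edgeR adjusted p = 0.056), and it was called there in 6 of 17 alternatives, among them the replicate number as a block (0.0268), with an adjusted p over all alternatives of 7.39e-05 to 0.416. Its difference between treatments was not called in 5 of 16 alternatives, so its class was not stable. Ms4a2, the beta chain of the IgE receptor, was singled out after its values were seen: it had 105, 108 and 99.9 CPM at rest, 186, 179 and 177 in stimulated and 106, 95.8 and 108 in difamilast libraries.

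Of 38 G protein coupled receptors and RGS proteins, 10 rose and 13 fell against rest (median -0.12). Returned genes, 0.82% of all tested genes, were 8 of the 38: C3ar1, Ccr7, Cxcr2, Gpr35, P2ry10, P2ry14, Ptafr and Rgs2. C3ar1, the receptor of complement fragment C3a, had 261, 281 and 286 CPM at rest, 477, 475 and 451 in stimulated and 243, 235 and 261 in difamilast libraries. In the same list Cysltr2, a cysteinyl leukotriene receptor, was held at 9.67-fold above rest, and Ccr2 was held at 4.54-fold below. The count of returned genes ranged from 21 to 143 higher and 60 to 154 lower when 1 library was left out. Leaving out resting replicate 1 gave 128 and 154, and leaving out stimulated replicate 1, 2 or 3 gave 28, 29 and 33 higher and 60, 62 and 64 lower. Leaving out difamilast replicate 1, 2 or 3 gave 28, 21 and 143 higher and 67, 62 and 116 lower.

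For 28 genes (0.131% of those tested) the calls against rest had opposite signs, 24 higher (0.112%) and 4 lower (0.0187%) with difamilast. This class was added after the values were seen. Its size depended on single libraries: it held 38 higher and 8 lower genes without resting replicate 1, 18 and 0 without resting replicate 2, and 17 and 2 without resting replicate 3. Without stimulated replicates 1 to 3 it held 15 and 0, 15 and 2, and 19 and 3, and without difamilast replicates 1 and 2 it held 15 and 4, and 15 and 3. Crem, the cAMP responsive modulator and a target of CREB, had 418, 496 and 514 CPM at rest, 242, 235 and 264 in stimulated and 712, 690 and 643 in difamilast libraries, with no overlap among the 3 groups. It was 1.43-fold above rest (log2 0.52 ± 0.11, edgeR adjusted p = 0.00146), while with the cytokines alone its log2 fold change was -0.95 (edgeR adjusted p = 5.97e-06). Sik1, a salt-inducible kinase gene that CREB controls, had 31.5, 29.5 and 26.8 CPM at rest, 10.8, 13.6 and 12.9 in stimulated and 49.1, 53.8 and 51.6 in difamilast libraries. Rgs1, which limits chemokine receptor signalling, and Fosl2, an AP-1 subunit gene, showed the same order.

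Tnf, the gene of tumour necrosis factor, was 1 of the 4 genes of this class that were lower with difamilast. It had 23.1, 29.6 and 58.1 CPM at rest, 59.4, 54 and 63.2 in stimulated and 22.3, 18.8 and 21.5 in difamilast libraries. Resting replicate 3 overlapped the stimulated libraries. The fall of 0.80 on the log2 scale against rest (edgeR adjusted p = 0.0187) was not called without resting replicate 3 or without difamilast replicate 2, where the adjusted p reached 0.0712, and its rise with the cytokines alone was called in 11 of 16 alternatives. Csf1, the macrophage growth factor gene, had 488, 373 and 347 CPM at rest, 581, 547 and 567 in stimulated and 261, 239 and 316 in difamilast libraries. Cd14, a lipopolysaccharide coreceptor and marker of monocytes, rose 2.18-fold from 407, 370 and 447 CPM to 1006, 920 and 735.

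Mediator and granule genes divided among the classes. Of 20 lipid mediator and histamine enzymes 5 rose and 9 fell (median -0.33), and of 34 granule and exocytosis genes 11 rose and 11 fell (median -0.13). Tph1, which makes serotonin precursors, rose 4.87-fold from 60.4, 50.9 and 55.3 CPM to 297, 262 and 252, and Slc18a2, the vesicular transporter of histamine and serotonin, rose 2.5-fold. Both were held. Pla2g4a, the phospholipase that frees arachidonic acid, had 18.4, 18.9 and 19 CPM at rest, 28, 25.4 and 32.4 in stimulated and 60.9, 61.6 and 54 in difamilast libraries, 3.14-fold above rest. Mcpt8, the basophil protease, rose 1.95-fold from 957, 1715 and 1629 CPM to 2498, 2616 and 3293. Sytl2, a regulator of granule docking, fell 5.3-fold and Ndst2, needed for heparin sulphation, 3.69-fold.

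Among the remaining lists, 15 of 31 unfolded protein and integrated stress response genes rose and 2 fell (median 0.35), with the chaperone Hspa5 at 2.36-fold. Glycolysis and hypoxia response genes gave 12 higher and 5 lower of 29 (median 0.28), with Egln3 at 4.94-fold and Hif1a at 2.61-fold above rest, and 3 lower without difamilast replicate 2 or 3. Of 29 p53 target and apoptosis genes 15 rose and 5 fell (median 0.36), among them the death receptor Fas (8.09-fold higher) and the cell cycle inhibitor Cdkn1a (3.34-fold higher). Surface activation and Fc receptor genes gave 16 higher and 3 lower of 27 (median 0.82), and transcription factors of basophils and mast cells 11 and 5 of 23 (median 0.12), with 9 lower without resting replicate 1. Integrin and adhesion genes gave 15 higher and 11 lower of 36 (median 0.12), and cytokine mRNA decay factors 11 and 3 of 25 (median 0.12). MYC targets and ribosome biogenesis genes gave 6 and 5 of 36 (median -0.08), with 3 lower without resting replicate 2, stimulated replicate 2 or 3 or difamilast replicate 1, and 2 without difamilast replicate 2.

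The marker lists of other cell types had lower summed levels than the basophil list, which includes genes that the cytokines raised. The lists differ in their members, so these sums do not measure the share of each cell type. Of 20 monocyte and macrophage markers 12 fell and 2, Cd14 and Vcan, rose, with a summed level of 6852 to 8521 CPM at rest, 5299 to 5663 in stimulated and 5799 to 5988 in difamilast libraries, most of it Lyz2. Of 16 neutrophil markers 3 rose and 3 fell, and their sum was 284 to 345 CPM at rest and 314 to 453 with difamilast, highest in difamilast replicate 3. Mast cell markers gave 4 higher and 4 lower of 14, progenitor markers 3 and 2 of 12, and dendritic cell markers 1 and 5 of 15. Eosinophil markers gave 1 higher and 5 lower of 8, with 3 lower without difamilast replicate 1 or 2, and the defining marker Epx did not pass the filter on low counts. NK and T cell markers gave 1 higher and 2 lower of 14 and stromal and endothelial markers 1 and 2 of 10. B cell markers gave 0 higher and 2 lower of 9, and erythroid and megakaryocyte markers 0 and 1 of 12 (5 lower without difamilast replicate 3). In both lists edgeR and DESeq2 called 0 higher, and edgeR gave 0 at an unadjusted p under 0.05. Their part in the changes of Cd14, Csf1, Ccl2 and other genes that such cells express was not tested.

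Promoters were available for 12922 of the 21341 tested genes, as RefSeq windows from 250 bases upstream to 50 downstream of the start site. Both strands were searched. The CRE octamer TGACGTCA was in 3.1% of them, in 6 of 80 drug-only genes that rose (7.5%), in 5 of 117 genes higher than at rest and farther from it with difamilast (4.27%) and in 46 of 1613 persisting genes that rose (2.85%). The shorter TGACG, which the octamer contains, was in 31.3% of all promoters, 41.2% of the drug-only rises and 41.9% of the rises farther from rest. The NF-kB consensus was in 5.97% of all, 8.8% of the persisting rises, 14.8% of the persisting rises that lay nearer to rest (13 of 88), 11.1% of those that lay farther (13 of 117), 3.75% of the drug-only rises (3 of 80), 11.1% of the drug-only falls (3 of 27) and none of the 59 returned genes that were higher in stimulated cells. These shares describe letters in the window and were not tested.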

How the data were processed

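The values are raw read counts per gene, which the authors deposited as a single table for 9 libraries. Oligo-dT capture of polyadenylated RNA and whole-transcriptome amplification by TAS-Seq came first, per the labels' protocols, and no molecular identifiers are mentioned, so counts may hold amplification copies and yield may depend on transcript length. Trimming and alignment tools were cutadapt 4.1 and Bowtie2 2.4.5 with the mouse build GRCm38, per the submitters' processing notes; how reads were counted, against which annotation and whether by strand, is not given in the sources used here.

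Groups came from the sample titles. edgeR 4.0.16 (R 4.3.3, statmod 1.5.0) tested the counts as deposited, after filterByExpr (minimum count 10, minimum total 15) and TMM scaling, with robust quasi-likelihood dispersion in 1 fit of all 9 libraries, which left 6 residual degrees of freedom. The filter left out 14332 genes; the lowest total among tested genes was 19 (Gm14379), and the highest among untested genes was 308 (Ighv2-6-8). P-values were adjusted by Benjamini-Hochberg across the 21341 genes tested. The common biological coefficient of variation was 0.156. Same-group libraries differed beyond counting noise (chi-square per degree of freedom 4.54 to 48.7), and none were merged; on amplified reads this measure cannot tell repeat preparations of 1 sample from separate samples. Of the symbols, 34294 matched GENCODE vM21 for positions and 20649 tested genes (96.8%) had a transcript length. Simulated counts with changes planted in the difamilast libraries were used to try the calls against rest only. The classes were not scored on them.

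The members, lists and classes were chosen with earlier results of these data known. Named genes are the 8 largest rises and 8 largest falls against rest without overlap and with at least 10 CPM, the 10 and 10 largest drug-only genes, and the 6 and 6 largest held, nearer, farther and returned genes. They also include a panel of 26 genes and up to 4 called genes of smallest p per list, without predicted genes, pseudogenes or ribosomal protein genes. The 6 and 4 largest genes on opposite sides of rest were added after their values were seen, and other genes named from list counts, such as Csf2rb, Cxcl16, Gfi1, Tyms, Mx1 and C3ar1, were chosen after their values were seen as well. Results for a few genes that these rules select are not reported here, and the figures leave them out. Alternatives were DESeq2 1.42.0, limma-voom (limma 3.58.1), RLE scaling, no filter, the replicate number as a block, thinning to the shallowest library, removal of the trend of log2 CPM (prior count 2) with transcript length by lowess (span 0.3), the 6 libraries alone, and each library left out in turn.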

Additional observations from a re-analysis of the deposited data

How the results depend on the processing

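Counts of genes higher and lower than at rest under difamilast stayed within 1.5 times of the reported ones in all 17 alternatives. With 1 library left out they were 2877 to 3423 higher and 2724 to 3850 lower, of which 1615 to 1742 and 1204 to 1448 changed at least 2-fold. The share of rises among calls ran from 45.4% to 52.1%. Persisting genes numbered 2075 to 2462 higher and 2117 to 2779 lower, and held genes 864 to 1332 higher and 980 to 1812 lower. Drug-only genes numbered 65 to 211 higher and 7 to 239 lower, and returned genes 21 to 143 higher and 60 to 154 lower. Resting replicate 1, each stimulated replicate and difamilast replicates 1, 2 and 3 each moved at least 1 of these counts by over 1.5 times. Against 38 drug-only genes lower, DESeq2 gave 74, no filter 160, thinning 25 and removal of the length trend 67. Without the filter 163 returned genes were higher and 159 lower, against 77 and 98, and thinning left 977 held genes lower, against 1589. The causes were not tested, apart from depth, which thinning lowers by construction.

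No pairing by replicate number was visible: deviations of same-numbered resting and difamilast libraries correlated at 0.11, -0.08 and 0 across genes. Pairs with different numbers ran from -0.15 to 0.17. Deviations from means of 3 libraries cannot exclude a paired design, and stimulated libraries were not part of this check. With the replicate block 3281 genes were higher and 3371 lower, 1729 and 1238 at least 2-fold, and no count above moved by over 1.5 times.

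Of 203 named genes called against rest, 196 were called in every alternative; Tnf, Klrd1, Il7r, Cd79a, Ighm, Kdr and Col1a1 were not. Of the named genes not called against rest, 5 gained a call in 15 pairs of gene and alternative: Prdx5, Tagap, Edn1, Ccl5 and Selenon. Beside those given above, the difference between treatments was not called in 10 of 16 alternatives for Gfi1b, 9 for Arap3, and 7 for Irak3 and Gna14. It was not called in 6 for Nfkbiz, and in 5 for Adora2b, Egln3, Steap4, Cd180, Pdia4 and Gadd45b. The call was lost in 4 for Acss2, Rab4a and Dusp5, 3 for Ifit2, and 2 for Pde4d and Nfkb1. For Gbp2, Ccl5, Padi2 and Bhlhe40 it was lost in 1. Reversed signs occurred only in 6 returned genes that lay near 0. With 1 library left out, Ccl5 ranged from -0.021 to 0.542, P2ry10 from -0.015 to 0.149, Mmp13 from -0.158 to 0.122, Procr from -0.412 to 0.035, Tsc22d3 from -0.164 to 0.093 and Ramp3 from -0.193 to 0.03. Otherwise Mmp13 was at -0.022 with DESeq2, -0.018 with RLE scaling and -0.024 thinned, Tsc22d3 at 0 thinned and Ramp3 at 0.05 thinned.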
